A study of Arabidopsis thaliana with 60 samples.

Results

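The 8 KNOX (KNOTTED1-like homeobox) genes of Arabidopsis thaliana with a homeodomain were examined in peak lists of 2 histone marks. They were chosen by family membership, among 27444 protein-coding genes of the nuclear chromosomes. Class I held SHOOT MERISTEMLESS (STM), KNAT1 (also BREVIPEDICELLUS, BP), KNAT2 and KNAT6. Class II held KNAT3, KNAT4, KNAT5 and KNAT7. For each gene, the percent of the gene body and of the 2.0 kb on each side that lay under peaks was taken from 30 lists. Whole seedlings were harvested at 8 days in every group.

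The single-end lists came from ult1-2 and ult1-3, which carry loss-of-function alleles of ULTRAPETALA1 (ULT1), and from 35S::ULT1, which expresses ULT1 from a viral promoter that is active in most tissues, all in the Landsberg erecta background, with the Ler wild type. They also came from ref6-3, which lacks function of the H3K27me3 demethylase REF6, with the Col-0 wild type. Each of these 6 genotypes had 2 libraries for H3K27me3 and 2 for K4 trimethylation, with 1 list per library. The antibody tag of the K4 libraries writes histone H4, and the text names the mark K4 trimethylation. The paired-end lists held H3K27me3 in ult1-3 clf-28, clf-28, ult1-3 swn-7, swn-7, ult1-3 and Col-0, with ult1-3 in Col-0 background and 1 list per genotype from 2 libraries. Per the labels' protocols, technical ChIP reactions from one extract of nuclei were pooled into a sample. CLF and SWN are methyltransferase subunits of Polycomb repressive complex 2 (PRC2), and each mutant here lost at most 1 of them. Nothing in the labels says that libraries of one genotype came from separate cultures of plants. A p-value thus cannot be taken as a measure of spread among cultures, and the spread among libraries may be technical. In the fit used for the tests, that spread is also shared among genes and raised to a minimum of 1 window of 200 bp.

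KNOX proteins are transcription factors that bind DNA together with partners of the BELL homeodomain family. Class I genes are expressed in the shoot apical meristem, keep its cells undifferentiated and are silenced in leaf primordia. There PRC2 and, for some but not all of them, the AS1 and AS2 proteins hold them off. Class II genes are expressed more widely, in differentiating organs. H3K27me3 is the mark that PRC2 sets on silenced developmental genes, and K4 trimethylation is found near the start of transcribed genes. In a whole seedling, fewer nuclei that carry a mark and less of the mark per nucleus cannot be told apart.

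Peaks numbered 6379 to 9945 in a single-end H3K27me3 list, 15527 to 16510 in a K4 list and 3703 to 5987 in a paired-end list. Reads inside peaks came to 8.79 to 22.4 M (M, 1e6) per H3K27me3 list and 16.5 to 22.5 M per K4 list, and the paired-end depth is unknown. The fewest peaks and the shortest covered length, 9.55 Mb, belonged to ult1-3 clf-28, against 18.9 Mb in paired-end Col-0. In the single-end lists, H3K27me3 peaks covered none of the ULT1 gene in ult1-2, 42.6% and 49.7% of it in ult1-3, 85.2% in both 35S::ULT1 libraries and 49.7% in both Ler libraries. Paired-end peaks covered 71.0% of it in ult1-3 clf-28 and in clf-28, 35.5% in ult1-3 swn-7, 56.8% in swn-7, 0% in ult1-3 and 74.9% in Col-0. A histone mark does not check a mutation, and since the lists hold no expression, neither the mutated genes nor the seedling tissue could be checked by transcripts. No paired-end list used here held a peak between positions 1246401 and 6571800 of chromosome 4, a stretch of 5.33 Mb that holds KNAT1. Each single-end H3K27me3 list held 138 to 189 peaks there, and the next longest stretch of the nuclear genome without a paired-end peak was 0.601 Mb. Values of 0% for KNAT1 in the paired-end lists are therefore not read as absence of the mark, and KNAT1 is left out of the comparisons among them.

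H3K27me3 lay on every class I gene and on 2 of the 4 class II genes in the single-end series. A gene counted as marked when 50% or more of its body lay under peaks. All 4 class I genes were marked in all 12 lists, which makes 48 of 48 pairs of gene and list. In class II, 23 of 48 pairs were marked, against 26.8% of the pairs of all coding genes. KNAT7 gave 12 of those 23 and KNAT4 gave 11, while KNAT3 and KNAT5 were marked in no list. Of all coding genes, 19.4% were marked in every single-end H3K27me3 list and 62.4% in none. Thus 5 KNOX genes, STM, KNAT1, KNAT2, KNAT6 and KNAT7, were marked throughout. In the median over the 4 genes of a class, class I cover was 98.2% to 100% of the body across the 12 lists and class II cover was 23.0% to 35.8%, with a median of 0% over all coding genes in every list. No class II gene stood at its class median: KNAT3 and KNAT5 were at 0%, KNAT4 at 46.0% to 71.6% and KNAT7 at 100%.

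**Figure D1:**
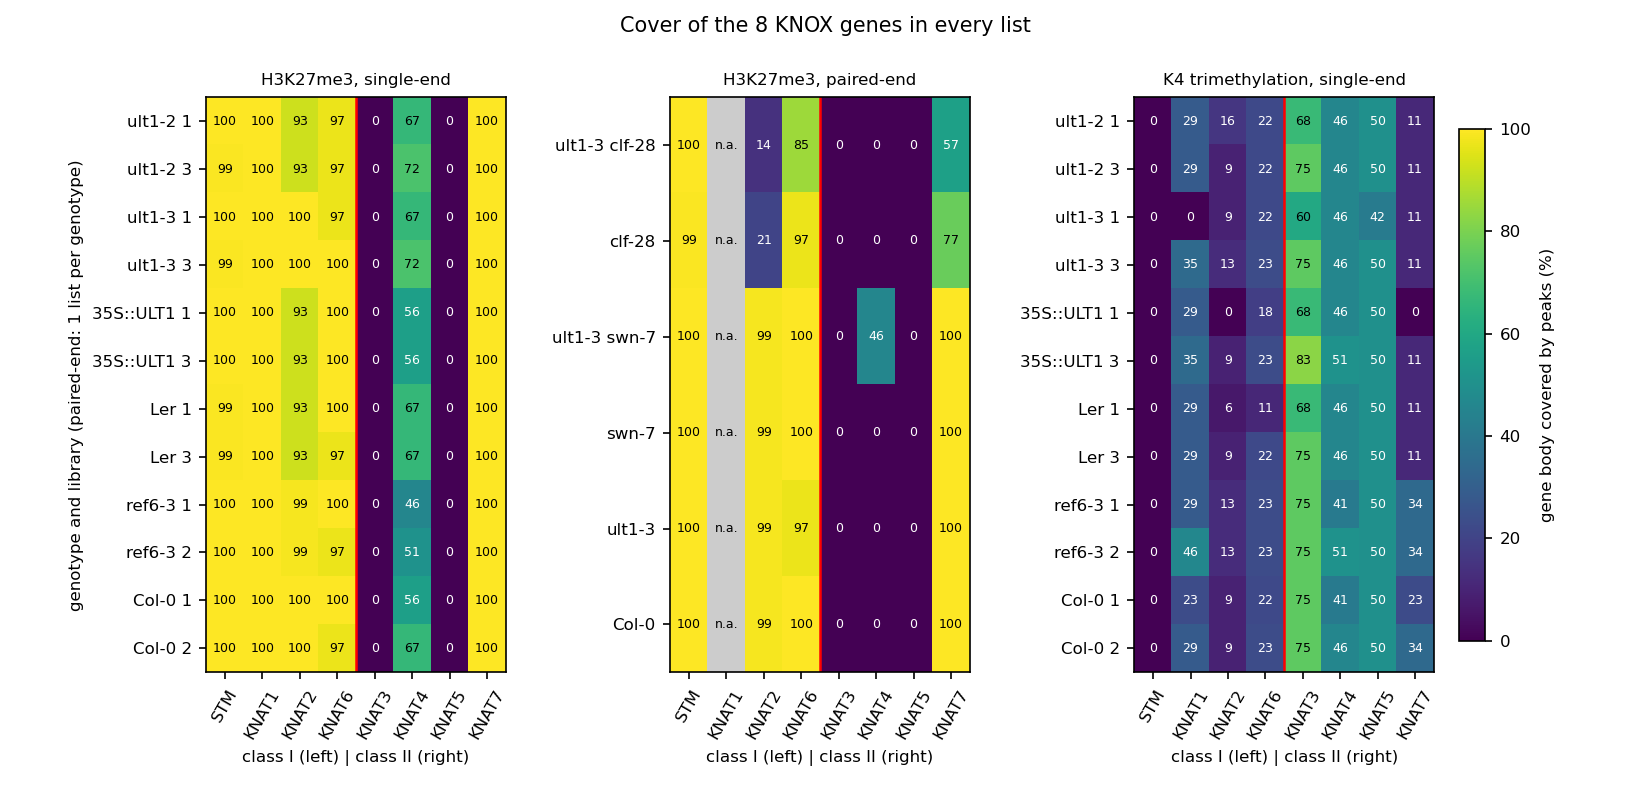
Percent of the gene body under peaks for each KNOX gene (columns, class I left of the red line, class II right of it) in each list (rows, genotype and library number), for H3K27me3 in the single-end and paired-end series and for K4 trimethylation; colour and printed number give the percent, and n.a. marks KNAT1 in the paired-end lists, where it lies in a stretch with no peak in any list. STM, KNAT1 and KNAT7 stand at 99.5% to 100% H3K27me3 in all 12 single-end lists, while KNAT3 and KNAT5 stand at 0%.

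In the paired-end H3K27me3 lists, STM, KNAT6 and KNAT7 were marked in all 6 lists, a state shared by 9.36% of coding genes. KNAT2 was marked in 4 of the 6, the exceptions being ult1-3 clf-28 and clf-28. KNAT3, KNAT4 and KNAT5 were marked in none, like 71.6% of coding genes. Class I thus gave 16 of 18 pairs without KNAT1, or 16 of 24 with its listed zeros, and class II gave 6 of 24, all from KNAT7, against 18.8% of the pairs of all coding genes.

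In counts of marked genes, K4 trimethylation did not divide the family along the same line. A gene was called marked by it when peaks covered at least 500 bp or 50% of the body. Class I gave 33 marked pairs of 48 and class II gave 40 of 48, against 62.7% for all coding genes. The class median of body cover did differ, at 4.69% to 18.9% in class I and 43.9% to 50.7% in class II across the 12 lists. Over all coding genes the median was 23.4% to 29.9%. KNAT3, KNAT4, KNAT5 and KNAT6 were marked in all 12 lists, KNAT1 in 11, KNAT2 in 10, KNAT7 in 4 and STM in none. Of all coding genes, 57.4% were marked by K4 in every list and 31.9% in none. KNAT3 was covered most, for 60.2% to 82.8% of its body with a median of 75.2%. KNAT5 followed at 41.8% to 50.1% and KNAT4 at 40.9% to 51.2%, ranges that overlap each other and lie below all values of KNAT3. The genes differ in length, and in bp under peaks KNAT3 (1600 to 2200) and KNAT4 (1600 to 2000) overlapped. KNAT5, at 1000 to 1200 bp, lay within the range of KNAT6, 600 to 1251 bp. KNAT1 lay between 0% and 46.2%, KNAT6 between 11.1% and 23.1%, KNAT7 between 0% and 34.0% and KNAT2 between 0% and 15.6%, and these 4 ranges overlap.

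STM, which is needed to form and keep the shoot meristem, was the only KNOX gene with no K4 peak in its body in any list. The nearest K4 peak lay on its lower-coordinate side and reached into the flank for 10.95% to 30.95% of its length, over the neighbour AT1G62350. Strand was not used here, so sides are given as the lower- and higher-coordinate side of a gene.

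Genes with overlapping peaks of the 2 marks were counted where at least 200 bp of the body lay under both in all 4 lists of a genotype. The marks come from separate libraries of whole seedlings, so marks in the same nuclei and in different nuclei cannot be told apart. In ult1-2, Ler, ref6-3 and Col-0, 5 of the 8 genes had such overlap, namely KNAT1, KNAT2, KNAT6, KNAT4 and KNAT7. Among all coding genes the share was 5.04% in ult1-2, 6.18% in Ler, 8.14% in ref6-3 and 4.82% in Col-0. In ult1-3 the count was 4, without KNAT1, which had no K4 peak in library 1, and the share of all coding genes was 4.9%. In 35S::ULT1 the count was 3, without KNAT2 and KNAT7, which had no K4 peak in their bodies in library 1, and the share was 11.3%. KNAT4 had the longest shared part in the Ler family, 1600 bp in each of the 4 genotypes. KNAT6 had the longest in ref6-3, 1251 bp, and in Col-0, 1200 bp. KNAT3 and KNAT5 carried K4 trimethylation without H3K27me3 in their bodies, and STM carried H3K27me3 without K4 trimethylation.

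The H3K27me3 peaks of the genes also differed in the rank of their fold. The fold of ChIP over control is the authors' value for a peak and is used here only as a rank within its own list. The STM peak stood between the 97.3rd and the 99.9th percentile of all peaks in the 12 single-end lists. KNAT6 stood at a median percentile of 85.1, KNAT2 at 76.7, KNAT7 at 67.8 and KNAT1 at 65.9. The KNAT4 peak was weak, between percentiles 6.78 and 34.5 with a median of 16.5. Among peaks that touch a KNOX gene body, the lowest STM value lay above the highest value of every other gene, and the highest KNAT4 value lay below the lowest of every other gene. The ranges of KNAT1, KNAT2, KNAT6 and KNAT7 overlap. Ranked by reads per kb of peak instead, KNAT7 had a median percentile of 35.9 (31.1 to 73.1). KNAT4 had a median of 26.1 (13.6 to 46.5) by that measure, so these ranges overlapped. The medians of KNAT1, KNAT2, KNAT6 and STM were 71.1, 83.8, 89.0 and 99.3.

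K4 peaks ranked the other way between most members of the classes. The fold of 10 K4 lists was used, leaving out library 3 of Ler and of ult1-2. The K4 peak in KNAT5 stood at a median percentile of 82.6, that in KNAT3 at 79.9 and that in KNAT4 at 79.1. The peak in KNAT6 stood at a median of 23.7, that in KNAT1 at 6.49 and that in KNAT2 at 4.46. KNAT7 was spread between percentiles 5.77 and 88.7 with a median of 26.8, so that it overlapped both sets.

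**Figure D2:**
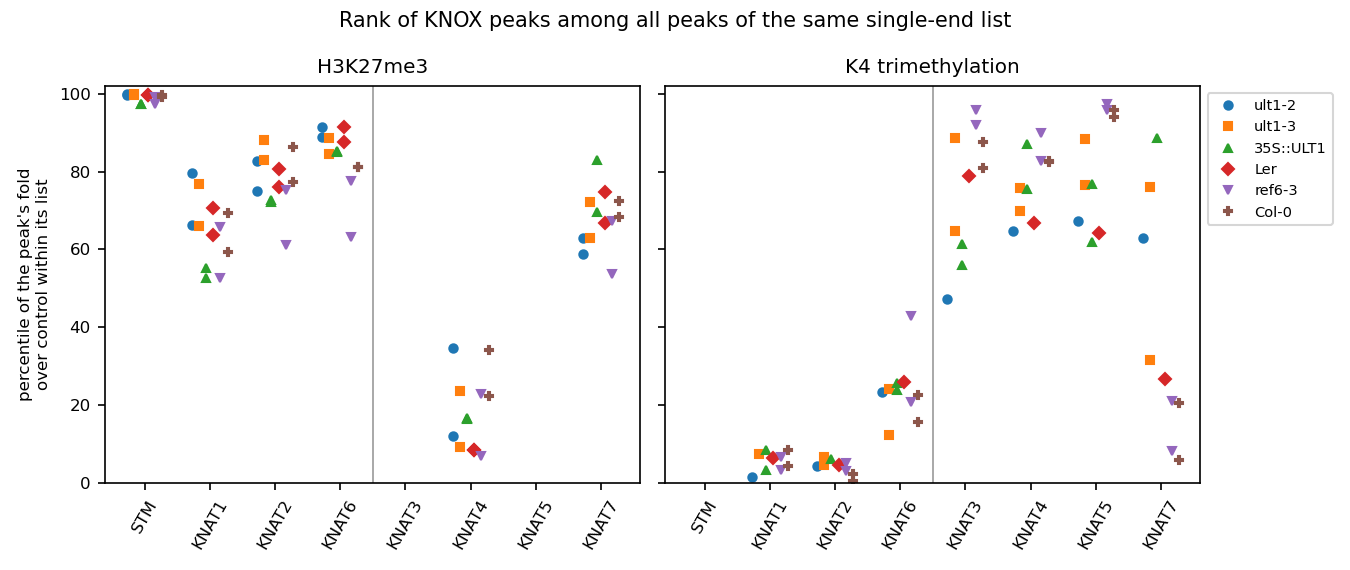
Percentile of the fold over control of each peak that touches a KNOX gene body among all peaks of its own single-end list (vertical axis), by gene (horizontal axis, class I left of the grey line) and genotype (symbol), for H3K27me3 on the left and K4 trimethylation on the right; each symbol is 1 peak in 1 library, and library 3 of Ler and of ult1-2 is left out for K4. STM lies above 97 in H3K27me3 and has no K4 peak, and KNAT4 lies at or below 34.5 in H3K27me3 but at 64.7 or above in K4 trimethylation.

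STM (AT1G62360) lies on chromosome 1 at 23058582 to 23062063. H3K27me3 covered 100% and 99.5% of its body in ult1-2, 100% and 99.5% in ult1-3, 100% in both 35S::ULT1 libraries, 99.5% in both Ler libraries, and 100% in both ref6-3 and both Col-0 libraries. The body was covered for at least 99.5% in every list, and the larger differences lay in the flanks. On the lower side, peaks covered 9.05% and 0% of the flank in ult1-2 and in ult1-3, 59.05% in both 35S::ULT1 libraries and 0% in both Ler libraries. The 35S::ULT1 values lay above all other Ler-family values, and how often flanks of all genes separate in this way is not given here. The same flank was covered for 9.05% and 39.05% in ref6-3 and for 49.05% and 39.05% in Col-0, so these groups touched.

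The domain around STM extended far past the gene on the higher side. In both Ler libraries it was 1 peak of 13.4 kb that ended 9937 bp past the gene. In both 35S::ULT1 libraries the peak over the gene was 5.2 kb long and ended 537 bp past the gene, and a second peak began after a gap of 600 bp. That gap is the smallest between peaks in any list, and it left 70.0% of the higher flank covered in 35S::ULT1, against 100% in Ler. Over the body and both flanks, cover averaged 81.0% in 35S::ULT1 and 73.0% in Ler (SD 0 in both, n = 2 each). The difference of 8.02 points did not pass limma's test (SE 4.21, adjusted p = 0.212), and the median shift over all genes tested was 2.73 points in that comparison.

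In the paired-end lists the STM body was covered for 99.5% in clf-28 and for 100% in the other 5. The domain over the gene was 12.6 kb in ult1-3 clf-28, 6.0 kb in clf-28, 14.8 kb in both ult1-3 swn-7 and swn-7, 21.2 kb in ult1-3 and 14.2 kb in Col-0. The lower flank was covered for 59.05% in ult1-3 clf-28, 0% in clf-28, 49.05% in both ult1-3 swn-7 and swn-7, 100% in ult1-3 and 70.0% in Col-0. The domain over the gene began at position 23057601 in Col-0, ult1-3 swn-7 and swn-7 alike. The Col-0 flank value also holds a separate peak beyond a gap of 600 bp. The shortest domain was thus that of clf-28 and the longest that of ult1-3, with 1 list each and no replicate check. The neighbour AT1G62350 (chromosome 1, 23056386 to 23058114) lay wholly under this domain in paired-end ult1-3 and partly under it in Col-0. H3K27me3 covered 100% of the AT1G62350 body in ult1-3, 0% in clf-28 and 65.3% in Col-0, where the separate peak adds to the value.

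KNAT1 (AT4G08150), which shapes internodes and pedicels, lies on chromosome 4 at 5147699 to 5151159. Its body was covered for 100% in all 12 single-end H3K27me3 lists. The peak over it was 13.4 and 18.4 kb long in ult1-2, 13.2 and 18.6 kb in ult1-3, 7.2 and 6.8 kb in 35S::ULT1 and 13.2 and 15.4 kb in Ler. Both 35S::ULT1 libraries were shorter than all others. The peak was 11.4 and 11.2 kb long in ref6-3, against 15.8 and 16.6 kb in Col-0. Peak length was not tested, and how often peaks of all genes separate in this way is not given here. The lower flank was covered for 74.9% and 54.9% in 35S::ULT1 and for 100% in both Ler libraries.

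Over body and flanks KNAT1 averaged 90.6% ± 3.79 in 35S::ULT1 and 100% ± 0 in Ler (SD, n = 2 each). The difference of -9.41 points (SE 3.98) had an unadjusted p of 0.0276 and an adjusted p of 0.1005 in limma's fit, and so was not called. In the same comparison, 23.5% of the genes tested over body and flanks were called. The longer domains also reached AT4G08160 (chromosome 4, 5159033 to 5162867), which was covered for 72.2% in Ler library 3 and for 82.6% and 93.0% in Col-0. AT4G08160 was also covered where the KNAT1 peak did not reach it. Its cover there was 77.4% in both 35S::ULT1 libraries, 82.6% in Ler library 1, and 82.6% and 87.8% in ref6-3. K4 trimethylation in the KNAT1 body was absent in ult1-3 library 1 and covered 34.7% in its library 3, against 28.9% in both Ler libraries.

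KNAT2 (AT1G70510), which acts in the meristem and in carpels, lies on chromosome 1 at 26576486 to 26582879. H3K27me3 covered 100% of its body in both ult1-3 libraries and 92.5% in both libraries of each of ult1-2, 35S::ULT1 and Ler. The mean was 100% ± 0 in ult1-3 and 92.5% ± 0 in Ler (SD, n = 2 each), a difference of 7.49 points with an SE of 7.31 and an adjusted p of 1. The size equals a few 200 bp windows at the gene's higher end, 3.13 points of the body each, where the peak reached 16.05% and 6.05% into the flank in ult1-3 and not at all in Ler. In ref6-3 both libraries had 98.8%, against 100% in both Col-0 libraries.

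KNAT2 was the KNOX gene that differed most among the paired-end lists. H3K27me3 covered 14.3% of its body in ult1-3 clf-28 and 20.6% in clf-28, and 98.8% in each of ult1-3 swn-7, swn-7, ult1-3 and Col-0. In both lists with clf-28 the remaining peak sat at the gene's lower end. It was 1.6 kb long in ult1-3 clf-28 and 2.0 kb in clf-28, against 8.6 kb in Col-0. The clf-28 list had, in addition, a peak in the higher flank that covered 83.95% of it. That flank was at 0% in the other 5 lists. Over body and flanks KNAT2 stood at 15.4% in ult1-3 clf-28, 38.4% in clf-28 and 79.998% in Col-0.

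KNAT6 (AT1G23380), which acts with STM in the meristem and at organ boundaries, lies on chromosome 1 at 8297241 to 8302651. It was covered for 97.04% to 100% in all 12 single-end lists, by 1 peak of 9.6 to 11 kb that ran 4349 to 5549 bp past its higher end. Every genotype mean in the single-end series lay within 1 window (3.70 points) of the others. In the paired-end lists its body was covered for 85.2% in ult1-3 clf-28, by 2 peaks, for 97.04% in clf-28 and in ult1-3, and for 100% in ult1-3 swn-7, swn-7 and Col-0. The higher flank was covered for 67.45% in clf-28 and for 100% in the other 5 lists.

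**Figure D3:**
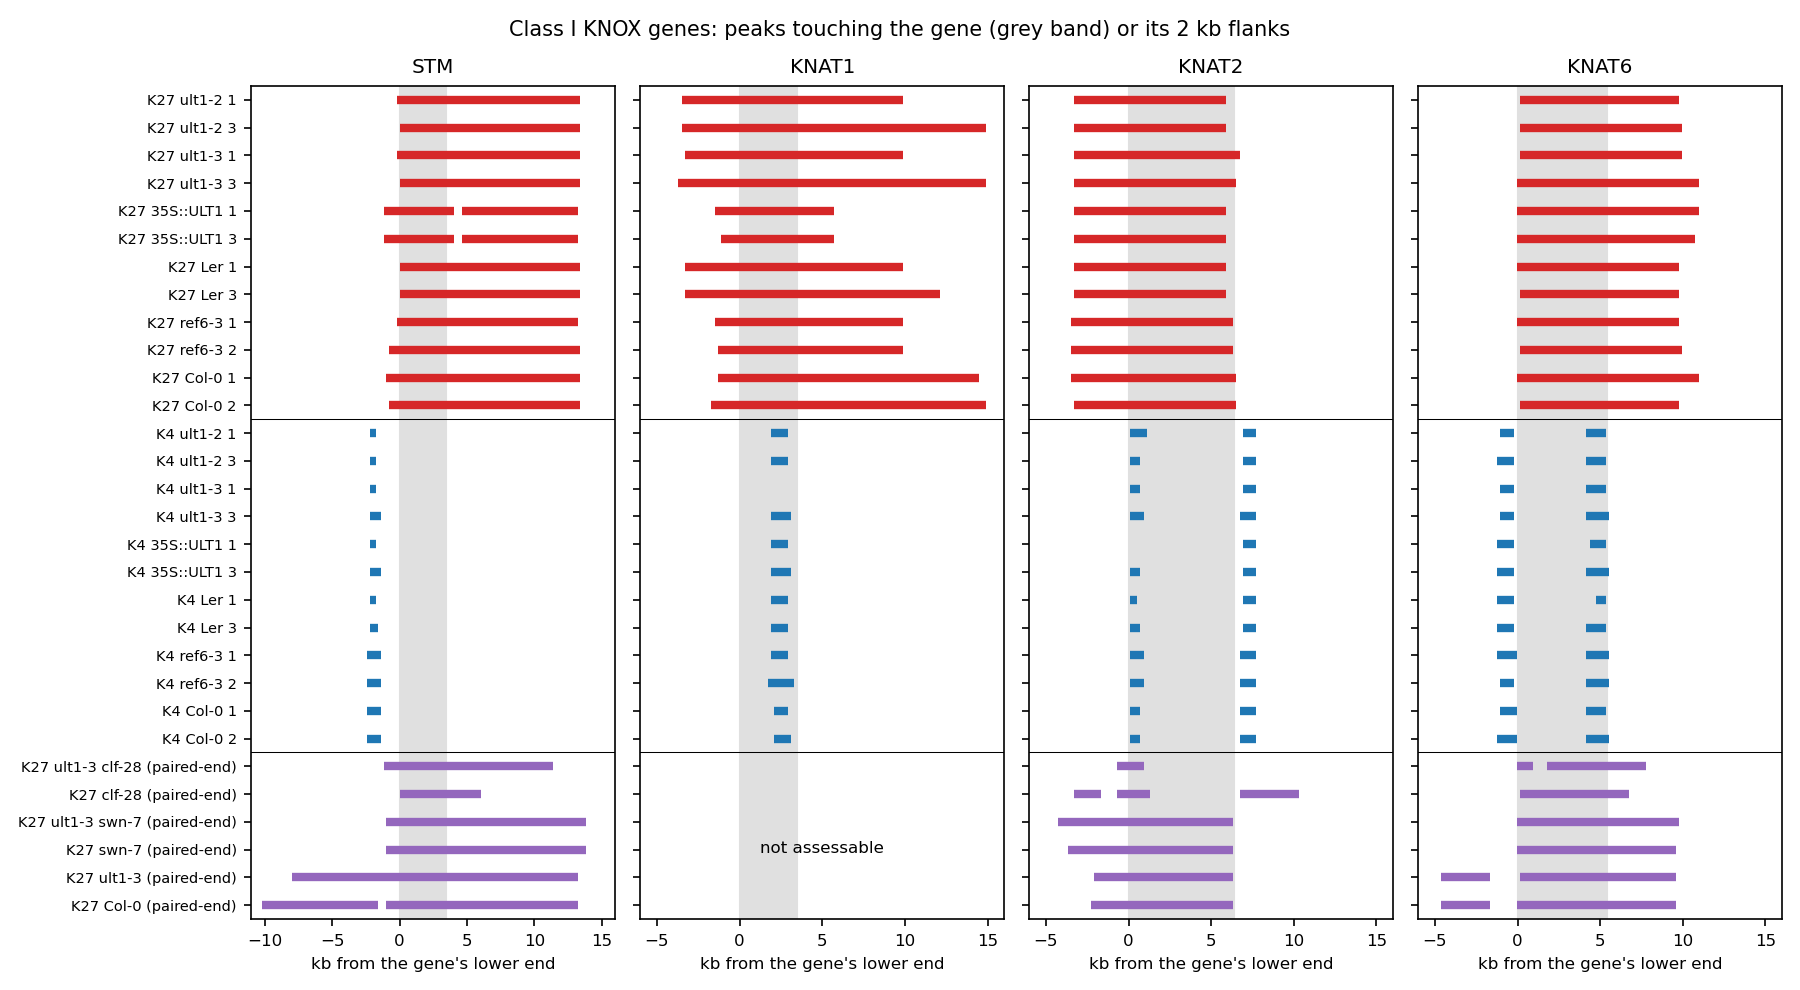
Peaks that touch each class I KNOX gene (grey band) or its 2 kb flanks, as bars along the distance in kb from the gene's lower end, in every list (rows; red, single-end H3K27me3; blue, K4 trimethylation; purple, paired-end H3K27me3). The STM domain is split in both 35S::ULT1 libraries, the KNAT1 peak is 7.2 and 6.8 kb long in 35S::ULT1 against 13.2 and 15.4 kb in Ler, and KNAT2 keeps a peak of 1.6 kb in ult1-3 clf-28 against 8.6 kb in Col-0.

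KNAT7 (AT1G62990), a regulator of secondary wall formation, lies on chromosome 1 at 23337167 to 23340692 and resembled class I in H3K27me3. Its body was covered for 100% in all 12 single-end lists, by a peak of 4.8 to 6.0 kb. A gap of 600 to 1000 bp on its lower side parted it from another domain in each of these lists. On the higher side, peaks covered 15.4% and 25.4% of the flank in ref6-3 and 65.4% and 55.4% in Col-0. All 8 libraries of the Ler family stood at 15.4% there. Over body and flanks KNAT7 averaged 68.2% ± 5.64 in ref6-3 and 80.2% ± 3.76 in Col-0 (SD, n = 2 each). The difference of -12.0 points (SE 4.38) had an adjusted p of 0.0539 in limma's fit, just outside the threshold, where 22.7% of the genes tested were called.

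In the paired-end series KNAT7 was covered for 56.7% in ult1-3 clf-28 and for 77.3% in clf-28, and for 100% in ult1-3 swn-7, swn-7, ult1-3 and Col-0. The peak that spans the gene and joins it to EXPA18, an expansin gene, was 13.4 kb in ult1-3 swn-7, 11 kb in swn-7, 13.2 kb in ult1-3 and 11 kb in Col-0. In ult1-3 clf-28 only a 2.0 kb peak over the higher part of the gene remained, and in clf-28 peaks of 0.8 and 2.4 kb lay over it. K4 trimethylation covered 34.0% of KNAT7 in both ref6-3 libraries, against 22.7% and 34.0% in Col-0. In the Ler family it covered 11.3%, or 400 bp, in 7 of 8 libraries and 0% in 35S::ULT1 library 1, which puts those libraries under the 500 bp minimum.

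KNAT4 (AT5G11060), a class II gene of root and leaf tissues, lies on chromosome 5 at 3509833 to 3513741. H3K27me3 covered 66.5% and 71.6% of its body in ult1-2 and in ult1-3, 56.3% in both 35S::ULT1 libraries and 66.5% in both Ler libraries. The 35S::ULT1 mean was 56.3% ± 0, against 66.5% ± 0 in Ler (SD, n = 2 each). This is 2 windows of the 5.12 points that 1 window gives, and limma gave a difference of -10.2 points with an SE of 8.55 and an adjusted p of 0.992. Cover was 46.0% and 51.2% in ref6-3, against 56.3% and 66.5% in Col-0. The difference of -12.8 points (SE 8.55) had an adjusted p of 0.665 by limma.

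The higher flank of KNAT4 carried a separate peak in some lists. It covered 0% and 87.05% in ult1-2, 0% in both ult1-3 libraries, 57.05% and 87.05% in 35S::ULT1 and 0% in both Ler libraries. In ref6-3 it covered 0% and 87.05%, against 87.05% in both Col-0 libraries. Over body and flanks, 35S::ULT1 was 13.2 points above Ler (SE 9.02, adjusted p = 0.439), and ref6-3 was 18.4 points below Col-0 (SE 9.02, difference -18.4, adjusted p = 0.229), by limma. In the paired-end lists only ult1-3 swn-7 had H3K27me3 on KNAT4, over 46.0% of the body and 70.0% of the higher flank. The other 5 lists had none, and among the genes outside the chromosome 4 stretch that were covered for 50% to under 80% in both single-end Col-0 lists, 30.9% were also listed at 0% in paired-end Col-0.

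KNAT3 (AT5G25220), a class II gene with a broad role in leaf and seedling growth, lies on chromosome 5 at 8735944 to 8738601. No H3K27me3 peak touched its body in any of the 18 lists. A small peak lay in its higher flank in all 12 single-end lists, over 30% and 50% of it in ref6-3, 60.05% in both libraries of 35S::ULT1 and of Ler, and 50.05% in the remaining 6. In the paired-end lists this flank was at 70.05% in clf-28, 50% in swn-7 and 60.05% in Col-0, and at 0% in ult1-3 clf-28, ult1-3 swn-7 and ult1-3. All 3 lists with ult1-3 thus lacked it and all 3 without ult1-3 had it. This split was not tested, since these genotypes have no replicate lists. How often flanks of all genes split in this way is not given here. Both single-end ult1-3 libraries, in Ler background, had the flank peak at 50.05%. KNAT5 (AT4G32040, chromosome 4, 15493989 to 15496381), a close relative of KNAT3 and KNAT4, had no H3K27me3 peak in its body or flanks in any of the 18 lists.

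**Figure D4:**
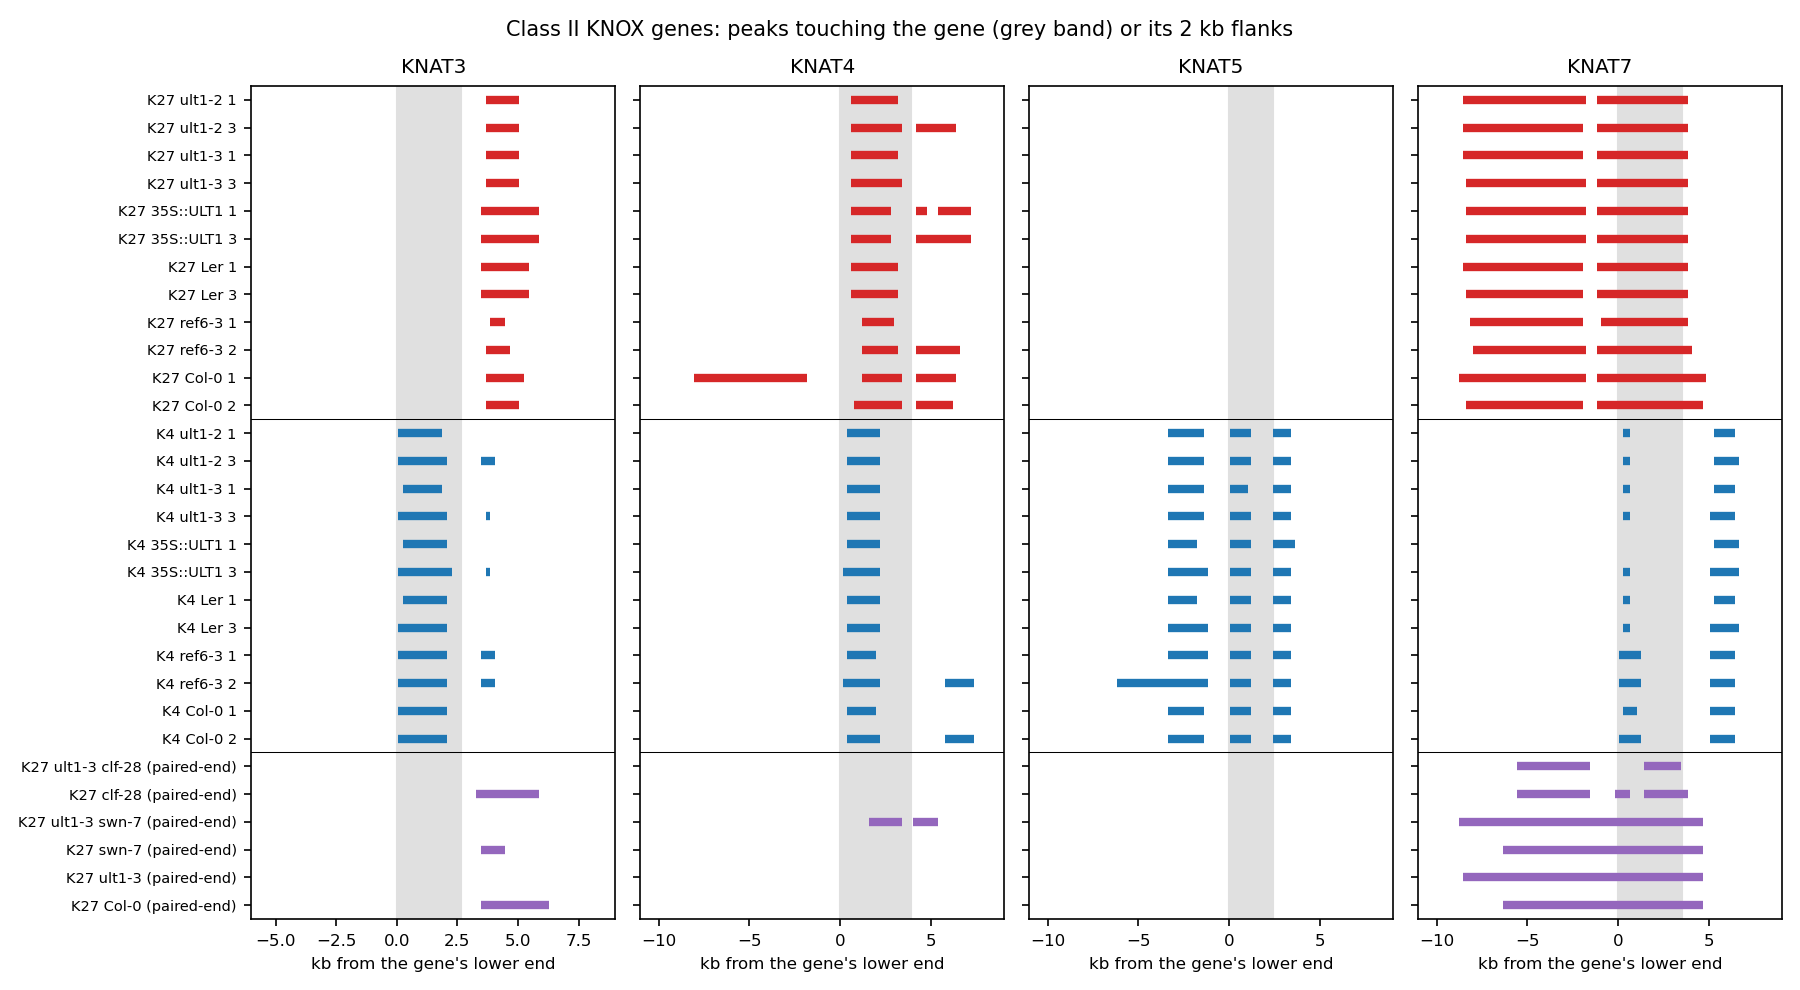
Peaks that touch each class II KNOX gene (grey band) or its 2 kb flanks, drawn as for class I (red, single-end H3K27me3; blue, K4 trimethylation; purple, paired-end H3K27me3). KNAT3 and KNAT5 carry K4 peaks in the body and none of H3K27me3, and KNAT4 has peaks of both marks over the same part. KNAT7 is covered for 100% by H3K27me3 in all 12 single-end lists. In the paired-end lists KNAT7 is covered for 77.3% in clf-28 and 56.7% in ult1-3 clf-28.

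No KNOX gene was called in any of the 8 comparisons of body cover by limma (adjusted p under 0.05), and none had an unadjusted p under 0.05. For H3K27me3, 6 of the 8 genes were tested, since KNAT3 and KNAT5 had no cover in any list. Of the 11905 genes tested, 0.042% were called in ult1-2 against Ler, 0.143% in ult1-3 against Ler, 8.85% in 35S::ULT1 against Ler and 14.1% in ref6-3 against Col-0. For K4 trimethylation, 7 genes were tested, since STM had none. Of 18961 genes, none were called in ult1-2 against Ler or in ref6-3 against Col-0 (108 and 185 genes had an unadjusted p under 0.05), 0.0264% were called in ult1-3 against Ler and 0.0211% in 35S::ULT1 against Ler. The standard error of a KNOX difference was 7.31 to 8.95 points for H3K27me3 and 4.72 to 11.02 points for K4 trimethylation. With 2 libraries per group and the fit's minimum SD, small differences of body cover were not detectable. Genes that are covered for 100% cannot show a gain in cover. The range of the 6 H3K27me3 differences was -12.8 to 0 points in ref6-3, -10.2 to 1.48 in 35S::ULT1, 0 to 7.49 in ult1-3 and -1.48 to 2.56 in ult1-2, and the median over all genes tested was 0 in each.

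Over body and flanks, 7 KNOX genes were tested for H3K27me3 and none was called either. Of the 19379 genes tested, 1.61% were called in ult1-2 against Ler and 1.85% in ult1-3 against Ler. The share was 23.5% in 35S::ULT1 against Ler and 22.7% in ref6-3 against Col-0. KNAT1 in 35S::ULT1 and KNAT7 in ref6-3, given above, were the 2 with an unadjusted p under 0.05. For K4 trimethylation all 8 were tested over body and flanks and none was called, and of 23437 genes 0.0768% were called in ref6-3 against Col-0. Against Ler, 0.00427% were called in 35S::ULT1, 0.0597% in ult1-3 and 0 in ult1-2. KNAT3 alone had an unadjusted p under 0.05, in ref6-3 against Col-0, with a difference of 9.01 points (SE 4.25) and an adjusted p of 1 by limma.

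Among the paired-end lists a gene was counted as different when body cover differed by at least 20 points, with no test, since each genotype has 1 list. In ult1-3 clf-28 against Col-0, KNAT2 (-84.5 points) and KNAT7 (-43.3 points) were lower, and 50.3% of all genes with cover in either list were lower. In clf-28 against Col-0 the same 2 genes were lower, KNAT2 at -78.2 points and KNAT7 at -22.7 points, with 28.2% of all genes lower. In ult1-3 clf-28 against clf-28, KNAT7 was lower, at -20.6 points, with 46.4% of all genes lower. That value lies just past the 20 points and was not counted with equal numbers of peaks, and the -14.8 points of KNAT6 in ult1-3 clf-28 against Col-0 lie just short of them. KNAT4 was higher in ult1-3 swn-7, by 46.0 points both against Col-0, where 13% of all genes were higher, and against swn-7, where 6.84% were. With equal numbers of peaks it was counted in neither. No KNOX gene differed in swn-7 or in ult1-3 against Col-0, with 24.7% and 29.6% of all genes different in either direction. The comparisons with Col-0 share its list. Of the 4 assessable genes that were marked in Col-0, STM, KNAT2, KNAT6 and KNAT7, STM and KNAT6 differed by at most 14.8 points in any of these comparisons.

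A list of 29 genes that act with KNOX proteins was examined beside them, with BELL partners, OFP regulators, the repressors AS1 and AS2, CUC and BOP boundary genes, and genes of gibberellin, cytokinin and anthocyanin metabolism. In the single-end series 15 of the 29 were marked by H3K27me3 in every list, as were 19.4% of all coding genes, and 16 by K4 trimethylation in every list, as were 57.4% of all coding genes. Limma, which tested 22 of them for H3K27me3 and 18 for K4 trimethylation, called none for K4 trimethylation and none in ult1-2 or ult1-3. The median difference in H3K27me3 was 0 points for the list and for all genes in all 4 comparisons.

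In 35S::ULT1, 1 gene of the list rose, with 8.56% of all genes tested called higher. BLH1, a BELL gene, was covered for 27.4% and 38.3% in 35S::ULT1, against 0% in both Ler libraries (difference 32.8 points, SE 6.27, limma adjusted p = 0.0148). BLH1 had enough cover to be tested only through the 35S::ULT1 libraries: without either of them, or with equal numbers of peaks, it could not be tested. Its call was lost without Ler library 1 or 3 (limma adjusted p = 0.0754 and 0.0789), with the difference unchanged. In ref6-3, 3 genes rose, with 12.8% of all genes tested called higher. BLH3, a BELL partner of STM, was covered for 81.5% in both ref6-3 libraries and 0% in both Col-0 libraries (difference 81.5 points, SE 7.77, limma adjusted p = 0.000322). BLH3 had enough cover to be tested only through the ref6-3 libraries, and without either of them it could not be tested. GA2OX2, an enzyme that inactivates gibberellin, was covered for 100% and 94.4% in ref6-3, against 24.9% in both Col-0 libraries (limma adjusted p = 0.00117). GA20OX1, an enzyme of gibberellin synthesis that KNOX proteins repress, was covered for 100% in both ref6-3 libraries and 31.7% in both Col-0 libraries (limma adjusted p = 0.00394). That call was lost with equal numbers of peaks (limma adjusted p = 0.287, difference unchanged at 68.3 points). In the 2 Ler wild-type libraries GA20OX1 was covered for 89.3% and 100%, while both had BLH3 at 0% and GA2OX2 at 32.6%.

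In the paired-end lists, 8 of the 29 genes were lower by at least 20 points and 1 was higher in ult1-3 clf-28 against Col-0, where 50.3% of all genes were lower and 6.15% higher. These shares are over genes with cover in either list, and 16 of the 29 had such cover here. In clf-28 against Col-0, 3 were lower and 7 higher among 21 with cover, with 28.2% of all genes lower and 20.6% higher. Against clf-28, 11 were lower in ult1-3 clf-28 and 0 higher among 20 with cover, where 46.4% of all genes were lower and 6.37% higher. In either direction, 4 differed in ult1-3 swn-7 against Col-0 (27% of all genes), 5 in swn-7 (24.7%), 3 in ult1-3 (29.6%), and 1 in ult1-3 swn-7 against swn-7 (18.4% of all genes), and 16 or 17 of the 29 had cover in these 4 comparisons. CUC3, a boundary gene, was covered for 0% in ult1-3 clf-28, 91.3% in clf-28 and 37.7% in Col-0. PAP1, a MYB gene of anthocyanin synthesis, was covered for 0% in ult1-3 clf-28, 97.4% in clf-28 and 100% in Col-0. GA20OX1 was covered for 0% in ult1-3 clf-28, 77.8% in clf-28 and 0% in Col-0, and BLH2 for 37.0%, 86.3% and 0% in that order of lists. CUC1 and BLH1 were covered only in clf-28 among these 3 lists, for 54.7% and 65.7%. BOP2 was covered for 44.2% in ult1-3 clf-28 and for 100% in both clf-28 and Col-0. CUC2, AS2, KNATM, BLH8, RPL, BOP1 and IPT7 were marked in all 6 paired-end lists, as STM, KNAT6 and KNAT7 were.

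Over body and flanks in all 30 lists, KNAT7 lay closer to STM, KNAT2 and KNAT6 than to its own class. Its mean absolute difference was 7.20 points from KNAT2, 9.47 from STM, 10.4 from KNAT6 and 26.98 from KNAT1, whose paired-end zeros enter it, against 28.7 points from KNAT4, 41.9 from KNAT3 and 54.8 from KNAT5. In the H3K27me3 lists alone, KNAT7 was 41.2 points from KNAT1, with its paired-end zeros, and 41.2 points from KNAT4. These distances are a description only: the values of both genes come from the same libraries, and the genes differ in length. The gene most like each member over all 30 lists, leaving out genes within 20 kb, was CYP71A24 for STM (4.82 points), AT5G10580 for KNAT2 (3.22), AT3G19070 for KNAT6 (2.74), BBX21 for KNAT3 (2.76), AT3G21450 for KNAT4 (5.81), COX10 for KNAT5 (0.537) and MEE39 for KNAT7 (4.93). For KNAT6 the second most alike was AGL24, a MADS-box gene (2.86 points). For KNAT1 it was AT4G03566 (6.40 points), which lies in the same stretch of chromosome 4, so that the shared zeros of the paired-end lists enter the measure.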

How the data were processed

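BWA, SAMtools, Picard, bedtools and SICER 1.1 are named, with build TAIR10, per the submitters' processing notes, which give no parameters here. Each of the 24 single-end lists that the authors deposited is from 1 library and each of the 6 paired-end lists from 1 genotype, by a combination of libraries that these sources do not give. The deposited single-end values used were the read count of a peak, its fold (ratio) of ChIP over control and its adjusted p-value (q-value), at most 9.99e-05, identified by position and range, since the files have no header. The deposited paired-end value is a score of unstated unit. The 50 other columns (control counts, unadjusted p-values and the fold of 2 K4 lists) were not used. In 2 K4 lists, of Ler and ult1-2, the library number differs from the labels, so they were assigned by genotype, and library numbers here are those of the lists.

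Gene positions came from the RefSeq gene table of TAIR10.1, and all 8 KNOX genes and all 29 listed partners were found in it. Sequence and strand were not used. Cover was computed with Python 3.11.15 and pandas 2.3.3. Body cover was tested with limma 3.58.1 (trend, robust, Benjamini-Hochberg adjustment over all genes tested, threshold 0.05) on the 12 lists of a mark in 1 fit, over genes with cover in at least 2 lists, with the residual SD of a gene set to at least 1 window of 200 bp. The fit was tested on simulated data. Genes named are the 8 members, coding neighbours under the same peak in Col-0 or Ler, at most 12 listed partners by size of change, and the genes most like each member. The members and lists were chosen with earlier results of these data known. Alternatives covered other cover minimums, flanks, filters, stricter peaks, equal numbers of peaks, a replicate block and leaving out each library. KNAT1 was left out of the paired-end comparisons, a choice made after seeing the data.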

Additional observations from a re-analysis of the deposited data

Results flagged for a closer look

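Cover of KNAT2 by H3K27me3 over body and flanks differed in opposite directions in 2 comparisons with ult1-3. Over the body and both flanks it was 23 points lower in ult1-3 clf-28 than in clf-28 (15.4% against 38.4%, a difference of -23 points, 1 list each, paired-end). Its body alone differed by -6.26 points (14.3% against 20.6%), under the 20 points used elsewhere, and 46.4% of all genes with cover were lower in body cover by at least 20 points in that comparison. It was 6.73 points higher in single-end ult1-3 than in Ler (82.9% ± 1.36 against 76.1% ± 0, SD, n = 2 each; limma adjusted p = 1). The difference between these effects was not tested, and the 2 settings differ in series, background and the presence of clf-28. In the paired-end lists without clf-28, KNAT2 stood at 79.998% in both ult1-3 and Col-0. The 23 points between ult1-3 clf-28 and clf-28 include a peak in the higher flank in clf-28. That peak covered 83.95% of the flank, which was at 0% in the other 5 paired-end lists.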

How the results depend on the processing

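The count of 0 called KNOX genes held in all 8 limma comparisons over body and flanks, without the filter on uncovered genes, with stricter peaks, with only the 2 genotypes compared, with a replicate block and without each library in turn (lowest and highest 0). It became 1 in 4 cases. Without the minimum SD, KNAT2 was called in ult1-3 against Ler (1 gene, 7.49 points) and in ref6-3 against Col-0 (1 gene, -1.24 points), where its libraries are identical within groups. With equal numbers of peaks, KNAT4 was called in ult1-2 and in ult1-3 against Ler (1 gene each, 69.1 points, adjusted p = 0.0315 and 0.0342), since its weak peak is not kept in either Ler list.

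Class II H3K27me3 pairs numbered 12 with a cover minimum of 80% and 15 over body and flanks, against 23. Without 1 library in turn, the single-end pairs were 44 in class I and 21 to 22 in class II for H3K27me3, and 30 to 31 in class I and 36 to 37 in class II for K4 trimethylation. Paired-end KNOX genes that differed between ult1-3 clf-28 and clf-28 numbered 2 at a minimum of 10 points (KNAT6 at -11.8 points and KNAT7) and 2 over body and flanks (KNAT2 at -23.0 and KNAT3 at -21.0 points, with KNAT7 at -15.9), and 0 at 40 points and with equal numbers of peaks, against 1, that of KNAT7. In clf-28 against Col-0 the count was 1 at 40 points, against 2. With equal numbers of peaks it was 0 in ult1-3 swn-7 against both Col-0 and swn-7, against 1.

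Library numbers could pair lists across genotypes only by their number: deviations from the group means correlated at -0.03 to 0.05 for H3K27me3 and 0.39 to 0.54 for K4 trimethylation. The replicate block gave 0 called KNOX genes in each comparison, and over all genes 0, 0, 809 and 1569 calls for H3K27me3 in ult1-2, ult1-3, 35S::ULT1 and ref6-3, against 5, 17, 1053 and 1674. The call of BLH1 was lost without Ler library 1 or 3 (adjusted p = 0.0754 and 0.0789), and that of GA20OX1 with equal numbers of peaks (adjusted p = 0.287), each with its difference unchanged. BLH1 had no value with equal numbers of peaks or without either 35S::ULT1 library. BLH3 had none without either ref6-3 library. For K4 trimethylation the block gave 16, 36, 37 and 69 calls over all genes in the same order, against 0, 5, 4 and 0.

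Over all genes, H3K27me3 calls in ult1-2, ult1-3, 35S::ULT1 and ref6-3 were 261, 266, 2369 and 2414 without the minimum SD, 312, 358, 4553 and 4394 over body and flanks, 212, 162, 1572 and 1916 with only 2 genotypes, 3, 2, 546 and 1378 with no filter, 7, 0, 1064 and 1626 with stricter peaks, and 16, 26, 583 and 1596 with equal numbers of peaks. In 35S::ULT1, 427 of those 583 were higher, against 1019 of 1053. K4 calls in ult1-2, ult1-3, 35S::ULT1 and ref6-3 were 67, 110, 76 and 268 without the minimum SD and 73, 111, 89 and 162 with only 2 genotypes; with flanks, no filter, stricter peaks or equal numbers of peaks they were at most 18. Without 1 library, H3K27me3 calls in 35S::ULT1 were 54 to 967, lowest without 35S::ULT1 library 3 (54) or 1 (81) and also low without Ler library 3 (282) or 1 (324). In ref6-3 they were 625 to 1621, lowest without ref6-3 library 2 (625) or 1 (675). The causes were not tested. Cover moves in steps of 200 bp, and peaks say nothing of the amount of mark within them.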
